A study of Mus musculus with 44 samples.

Results

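Dendritic cells (DCs) of control mice injected with tumour cells were compared with DCs of sham-injected control mice in the dark phase of the day. The comparison holds 16 of the 44 libraries of the series, chosen by their labels: 10 with B16-F10-OVA cells (5 at ZT15 and 5 at ZT21) and 6 with PBS (3 at ZT15 and 3 at ZT21). Zeitgeber time (ZT) counts hours from lights on, so that both timepoints lie in darkness. B16-F10-OVA is a mouse melanoma line that carries ovalbumin as a model antigen, and the sham condition (PBS) received buffer alone. All 16 libraries are labelled with the genotype WT and come from young adult female mice, 1 mouse per library, whose inguinal draining lymph nodes were taken the day after subcutaneous injection into the right flank. CD45+CD11c+MHCII high cells, the gate of migratory DCs, were sorted and their RNA was sequenced. The 6 dark-phase libraries labelled KO (3 at each timepoint, Clec9a-cre:Bmal1 flox mice with tumour cells) and the 16 light-phase libraries of the same treatments (ZT3 and ZT9) are given beside them. The Cre of the KO mice is driven by the Clec9a promoter in conventional DCs and their precursors, which removes part of Arntl, the gene for the core clock protein BMAL1. The study states that the sequenced mice came from more than 1 experiment, and which mouse belonged to which experiment was not given in the sources used here.

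DCs take up antigen in tissue, mature and move through lymph to the draining node, where they show peptides on MHC molecules to T cells. Maturation replaces the uptake machinery with a migratory programme led by the chemokine receptor CCR7 and with co-stimulatory ligands such as CD80 and CD86. The gate holds conventional DCs of type 1, which cross-present antigen to CD8+ T cells, conventional DCs of type 2, which mainly serve CD4+ T cells, and Langerhans cells of the epidermis. Other lymph node cells can enter it in small numbers, among them plasmacytoid DCs, macrophages, innate lymphoid cells, B cells and doublets of a DC with a lymphocyte. In bulk samples such as these, fewer cells of a type and less RNA per cell cannot be told apart.

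Values are reads per 1000000 reads on genes (CPM), fold changes and tests refer to log2(CPM + 0.5), and a gene is called when its adjusted p in limma is under 0.05. In sentences of values, the lowest, the median and the highest library are given in that order. The tumour libraries stood apart from the others before any single gene was considered. They held 20088012 to 28962671 reads on genes and the sham libraries 30611830 to 49590054 reads, without overlap, and the KO libraries of the dark phase 29406729 to 46028917 reads. On the first principal component of the 16 libraries (28.9% of the variance), tumour libraries lay between -40.4 and -10.6 and sham libraries between 21.4 and 62.3, with sham ZT15 replicate 2 and tumour ZT21 replicate 1 farthest out. With the KO libraries added, the first component (21.03%) ran from -44.6 to -20.5 in the tumour libraries, from 16.3 to 43.1 in the sham libraries and from 9.10 to 34.0 in the KO libraries, so that on this component the KO libraries, also of mice with tumour cells, overlapped the sham libraries. On the second component (15.01%) the KO libraries, between -79.0 and -4.14, did not overlap the sham libraries, between 3.35 and 39.7. Depth and treatment cannot be told apart in these 16 libraries, and the part of depth in the results was not tested. Experiment and sequencing run were not given per library in the sources used here, so that neither can be told apart from treatment, for genes such as Mrgpra6, Actb, Gapdh and H2-Q4 as for the others. For this reason the level in the KO libraries stands beside many genes. Arntl itself did not check the KO label, since it stood at 13.9, 19.6 and 37.99 CPM in the libraries labelled KO, at 8.67, 13.5 and 20.3 CPM in the tumour libraries and at 12.3, 21.4 and 34.8 CPM in the sham libraries. A value for the whole gene does not show the removed exon.

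The markers of the gate were present in every library. Itgax (CD11c) was 29.5, 39.6 and 67.1 CPM in tumour and 43.8, 53.95 and 68.8 CPM in sham libraries, H2-Ab1 (an MHC class II chain) 2060.1, 2203 and 3881 and 2385, 3065 and 3387 CPM, and Ptprc (CD45) 234, 277 and 346 and 285, 323 and 374 CPM, and none of these was called (adjusted p = 0.133, 0.194 and 0.173). Ccr7, the receptor of migratory DCs, was 4260.4, 5207 and 6036 CPM in tumour and 3934, 4841 and 5826 CPM in sham libraries (log2 difference 0.07, adjusted p = 0.727). Markers of other cells were present at levels that ranged widely. NK cell markers summed to 115 to 167 CPM in tumour and 280 to 1051 CPM in sham libraries, monocyte and macrophage markers to 885 to 1629 and 2749 to 4900 CPM, plasmacytoid DC markers to 834 to 1017 and 1154 to 1628 CPM, and basophil and mast cell markers to 11.5 to 29.6 and 35.1 to 129 CPM, each without overlap. T cell markers overlapped (953 to 1318 and 1114 to 2193 CPM), B cell markers did not (121 to 156 and 192 to 323 CPM), and keratinocyte markers reached at most 21.4 and 21.9 CPM. The melanoma marker Pmel stood at 0.138, 0.834 and 1.498 CPM after tumour cells and at 0.524, 1.32 and 1.93 CPM after PBS. Melanoma markers, including listed genes too low to be tested, summed to at most 7.07 and 8.31 CPM. In the KO libraries this sum was 4.24, 5.20 and 54.8 CPM, and the reason for the high value was not tested.

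Of 11963 genes tested, 2044 (17.1%) were called, 658 higher (5.5%) and 1386 lower (11.6%) with tumour cells. At 2-fold or more, 161 genes were higher (1.35%) and 531 lower (4.44%). In 133 genes every tumour library was above every sham library (1.11%), and in 373 every one was below (3.12%). The median of all genes was -0.05 on the log2 scale, with a median standard error of 0.16. Scaling by the median of ratios in place of the library total gave 837 genes higher and 1131 lower. Without the libraries farthest out on the first component, a comparison chosen after the data were seen, 430 genes were higher (3.59%) and 978 lower (8.18%). More genes were lower than higher under both scalings. The counts of list members that follow stand beside these shares of all genes (5.5% higher and 11.6% lower).

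The NK cell list had the lowest median of the 48 gene lists. Of the 15 NK cell genes tested, 12 fell and none rose, with a median log2 difference of -1.68 beside -0.05 over all genes. Ncr1, the NK receptor NKp46 (chr7:4337715-4345184, GRCm38), was 0, 0.824 and 3.61 CPM in tumour and 7.78, 16.5 and 39.5 CPM in sham libraries (log2 difference -3.67 ± 0.35 (SE), adjusted p = 4.59e-06). All 5 tumour libraries at ZT21 were at or below 1.15 CPM. The granzymes Gzmb (0.282, 1.16 and 4.25 against 12.5, 15.8 and 42.04 CPM, log2 -3.26) and Gzma (0.846, 2.23 and 8.64 against 10.7, 38.7 and 200.1 CPM, log2 -3.60), proteases of cytotoxic granules, gave the same picture. Il2rb, a receptor chain for IL-2 and IL-15, fell by a smaller amount (log2 -1.45, adjusted p = 6.10e-05). The libraries labelled KO had a median between both groups for Ncr1, at 2.68, 4.998 and 11.3 CPM (log2 -1.53 against sham, adjusted p = 0.0589), and at sham level for Il2rb, at 58.2, 62.8 and 103 CPM (log2 -0.10, adjusted p = 0.7905).

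Other genes of lymphocytes, apart from Icos, were named for the size of their fall under a rule that admits only genes whose tumour and sham libraries do not overlap. Il17f, a cytokine gene, was listed at 0 in all 10 tumour libraries and stood at 2.71, 5.62 and 9.01 CPM in the sham libraries. Il22 was 0, 0.29996 and 2.67 CPM against 11.8, 16.4 and 32.8 CPM (log2 difference -4.29 ± 0.44 (SE), adjusted p = 1.01e-05). Cxcr6, a chemokine receptor of tissue-resident lymphocytes, showed the difference at a higher level, with 6.23, 17.6 and 39.8 CPM in tumour, 94.3, 162 and 322 CPM in sham and 50.4, 92.4 and 156 CPM in KO libraries. The tumour minus sham difference was -3.25 ± 0.26 (SE) on the log2 scale (adjusted p = 8.21e-07), and the KO libraries lay above all tumour libraries. Icos, a co-stimulatory receptor of T cells and innate lymphoid cells, fell from 136, 160.3 and 348 to 44.2, 56.7 and 75.9 CPM (log2 -1.63), and Blk, a kinase of B cells and some IL-17 producing T cells, from 14.05, 20.8 and 69.4 to 0.588, 1.71 and 3.97 CPM (log2 -3.42).

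T cell genes did not move one way. Of 24 tested, 9 fell and 3 rose (median -0.22), where 11.6% of all genes fell and 5.5% rose. Cd3e, a chain of the T cell receptor complex, fell (log2 -0.70, adjusted p = 0.0108), as did the receptor kinase Zap70 (log2 -1.002, adjusted p = 4.79e-04). Conversely, Lef1 and Tcf7, transcription factors of naive T cells, rose, Lef1 from 13.3, 18.5 and 23.3 to 31.6, 37.6 and 54.1 CPM (log2 1.06, adjusted p = 9.17e-05) and Tcf7 from 60.98, 84.7 and 102 to 129.8, 161 and 191 CPM (log2 0.99, adjusted p = 1.20e-04). Tcf7 was also high in the KO libraries, at 144, 167 and 199 CPM. Of 15 B cell genes 4 fell, among them Cd79a, a chain of the B cell receptor, with a difference of -0.45 (adjusted p = 0.0442) that lost its call when any of 11 of the 16 libraries was left out (adjusted p up to 0.113, without sham ZT21 replicate 3). Of 6 plasma cell genes 2 fell and 4 were not called, and Sdc1 (syndecan 1), found on plasma cells and other cells, had the largest difference among them (0.996, 3.63 and 12.6 against 26.5, 30.96 and 73.7 CPM, log2 -3.18).

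**Figure D1:**
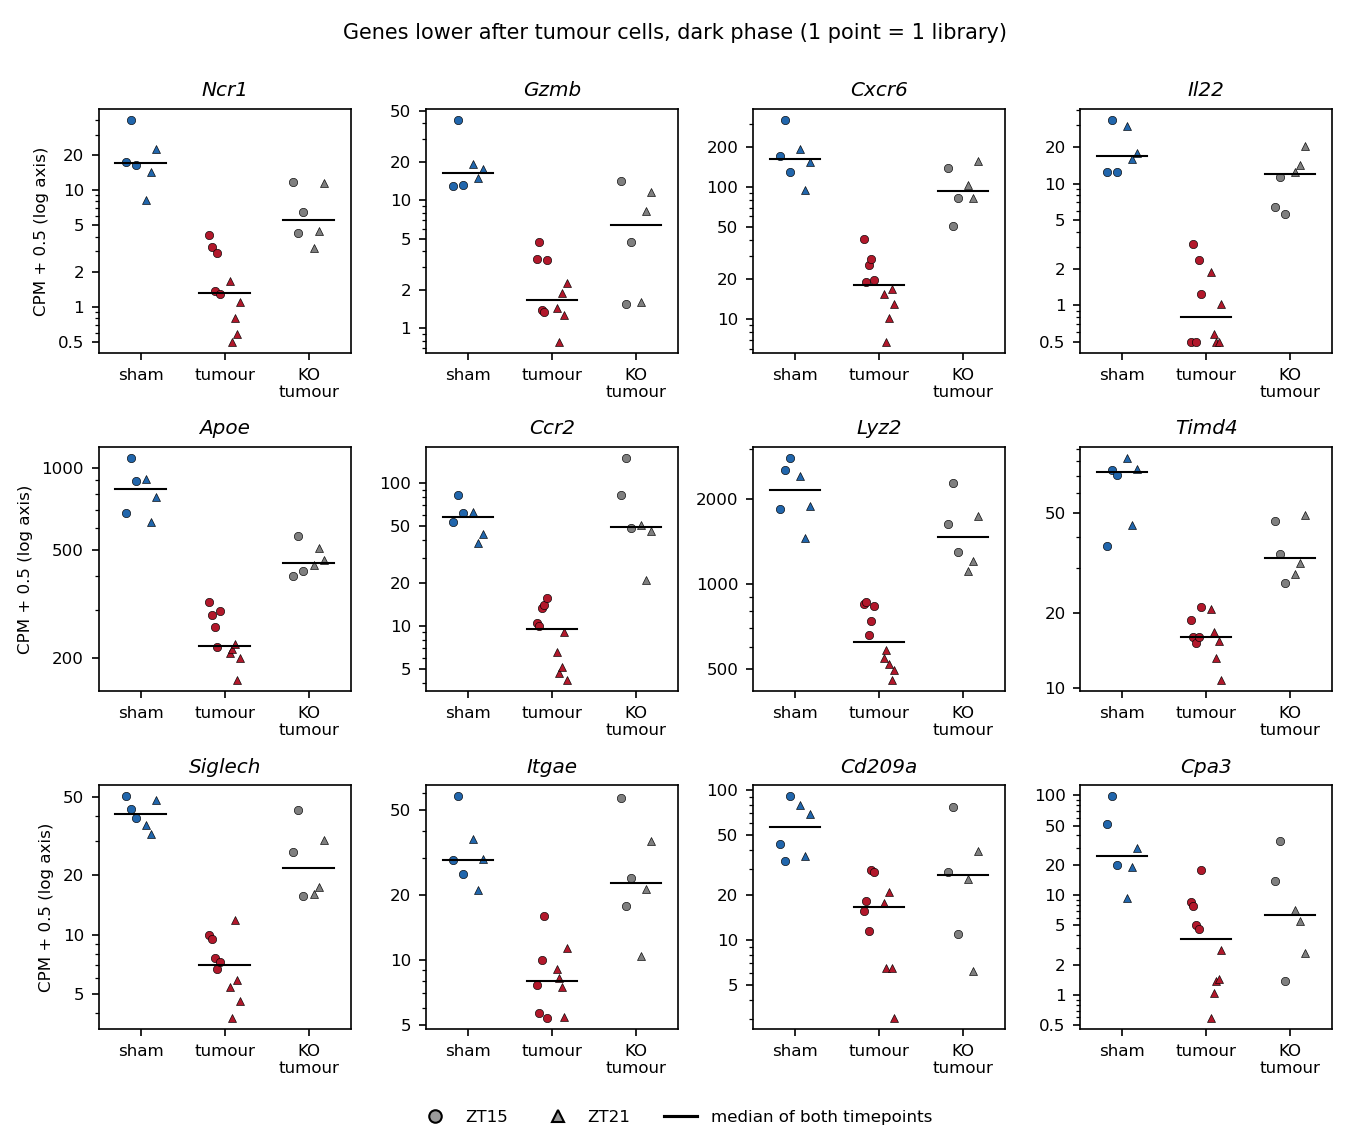
CPM + 0.5 on a log axis for 12 genes that fell, with 1 point per library (circles ZT15, triangles ZT21) in sham (6), tumour (10) and KO tumour (6) libraries and a bar at the median. The tumour libraries of Ncr1 lie between 0 and 3.61 CPM and the sham libraries between 7.78 and 39.5 CPM, and most KO libraries of the 12 genes lie between both groups or at sham level.

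Macrophage and monocyte genes fell in 15 of 20 cases, and none rose (median -1.19), against 11.6% of all genes lower. Apoe, an apolipoprotein secreted by macrophages (chr7:19696244-19701310), was 165, 221 and 319.7 CPM in tumour and 633, 839 and 1088 CPM in sham libraries (log2 difference -1.80 ± 0.13 (SE), adjusted p = 1.73e-07), and no libraries of the groups overlapped. The KO libraries, at 399.9, 447 and 560.1 CPM, lay between them (log2 -0.83, adjusted p = 0.0265). Ccr2, the receptor that brings monocytes out of the marrow, fell from 37.3, 57.1 and 81.8 to 3.67, 9.07 and 15.1 CPM (log2 -2.71, adjusted p = 2.35e-07), whereas the KO libraries held 20.4, 48.96 and 149 CPM. Lyz2, a lysozyme of myeloid cells with a near-identical neighbour in Lyz1, fell by 1.72 on the log2 scale. Timd4, a receptor for phosphatidylserine on resident macrophages that take up dead cells, fell from 36.4, 71.8 and 82.03 to 10.3, 15.4 and 20.5 CPM (log2 -1.93). The complement chains C1qa, C1qb and C1qc also fell (log2 differences -1.10, -1.16 and -1.39). Ccr2 and Lyz2 had fractional values, not whole reads, in 100% and 87.5% of the 16 libraries, so that part of their reads may be shared with other genes.

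Plasmacytoid DC genes followed. Of 14 tested, 10 fell and 1 rose (median -0.93), with 11.6% and 5.5% over all genes. Siglech, the surface lectin that marks these cells in mice, was 3.26, 6.49 and 11.4 CPM in tumour and 32.001, 40.6 and 49.8 CPM in sham libraries (log2 difference -2.58 ± 0.20 (SE), adjusted p = 5.64e-07). The highest tumour library stood at 11.4 CPM, and every sham library was above it. Klk1, Ly6d, Cox6a2 and Ccr9, genes used to mark the same cells, fell as well (log2 differences -2.80, -1.79, -1.82 and -1.07). In the KO libraries plasmacytoid DC markers summed to 809, 946 and 1131 CPM, below every sham library (1154 to 1628 CPM). Against sham 1 of the 14 genes was lower there and none higher (median -0.55), beside 0.41% and 1.69% of all genes. Mast cell and granulocyte genes were few and low. Cpa3, a protease of mast cells and basophils, was 0.0884, 3.196 and 17.4 CPM against 8.997, 24.5 and 97.5 CPM, with an overlap of the groups (log2 -3.18, adjusted p = 9.83e-05), and Cxcr2, a neutrophil chemokine receptor, 0.3896, 1.18 and 2.19 against 3.36, 5.74 and 6.59 CPM (log2 -1.79). Of the 4 basophil and mast cell genes 3 fell, and 1 without the libraries farthest out.

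Conventional DCs of type 1 had 12 of 18 genes lower and none higher (median -0.84), while 11.6% of all genes were lower. Itgae (CD103), an integrin chain of migratory type 1 DCs that T cells also carry, was 4.85, 7.45 and 15.5 CPM in tumour and 20.7, 28.9 and 57.3 CPM in sham libraries (log2 difference -1.95 ± 0.25 (SE), adjusted p = 7.27e-05), without overlap. Ppt1, a lysosomal thioesterase, fell from 116, 146 and 204 to 67.4, 85.9 and 105 CPM (log2 -0.79, adjusted p = 2.68e-05), and Wdfy4, required for cross-presentation, by 0.89 on the log2 scale (adjusted p = 0.004996). The chemokine receptor Xcr1, their defining marker, stood at 1.69, 11.3 and 24.5 CPM against 16.2, 22.8 and 48.4 CPM (log2 -1.30, adjusted p = 0.0249). This call was lost without sham ZT15 replicate 2, sham ZT21 replicate 2 or sham ZT21 replicate 3 (adjusted p = 0.0705, 0.0526 and 0.0591). Clec9a, which binds dead cells, was low and was not called (1.299, 1.93 and 3.304 against 1.38, 4.296 and 7.401 CPM, adjusted p = 0.0727), but it was called with ZT15 fitted alone and without tumour ZT21 replicate 2, sham ZT21 replicate 1 or sham ZT21 replicate 2 (adjusted p = 0.0203, 0.0292, 0.0449 and 0.0227).

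Genes of type 2 conventional DCs split, with 8 of 20 lower and 2 higher (median -0.64), beside 11.6% and 5.5% of all genes. The lectin Cd209a was 2.51, 16.1 and 28.8 CPM in tumour and 33.5, 56.3 and 90.5 CPM in sham libraries (log2 -2.08, adjusted p = 0.00293), and its relative Cd209d 4.33, 11.2 and 25.4 against 20.6, 43.1 and 52.6 CPM (log2 -1.64). Csf1r, the receptor for M-CSF that macrophages also carry, fell from 48.1, 68.4 and 105 to 12.9, 23.3 and 43.2 CPM (log2 -1.48) and stood at 36.5, 68.6 and 141 CPM in KO libraries. The lectin Mgl2 (log2 -1.34, adjusted p = 0.0276) lost its call without sham ZT15 replicate 3, sham ZT21 replicate 1 or sham ZT21 replicate 3 (adjusted p = 0.0683, 0.0748 and 0.0616). In the other direction, S100a4, a calcium-binding protein of motile cells, rose from 417, 603 and 727 to 718, 933 and 1105 CPM (log2 0.69, adjusted p = 0.00184), while the KO libraries stood at 257, 467 and 541 CPM (adjusted p against sham = 0.203). Of 12 Langerhans cell genes 4 fell and none rose, and 1 fell without the libraries farthest out, which is near the 8.18% of all genes there. Cd207 (langerin) was 14.3, 21.3 and 35.97 CPM in tumour and 10.97, 19.97 and 29.4 CPM in sham libraries (log2 0.13, adjusted p = 0.708), a difference that was -0.03 without sham ZT21 replicate 1. Epcam, an adhesion molecule of these cells, differed by -0.32 (adjusted p = 0.0436), and this call did not persist without any of 10 of the 16 libraries (adjusted p up to 0.101, without sham ZT15 replicate 2).

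**Figure D2:**
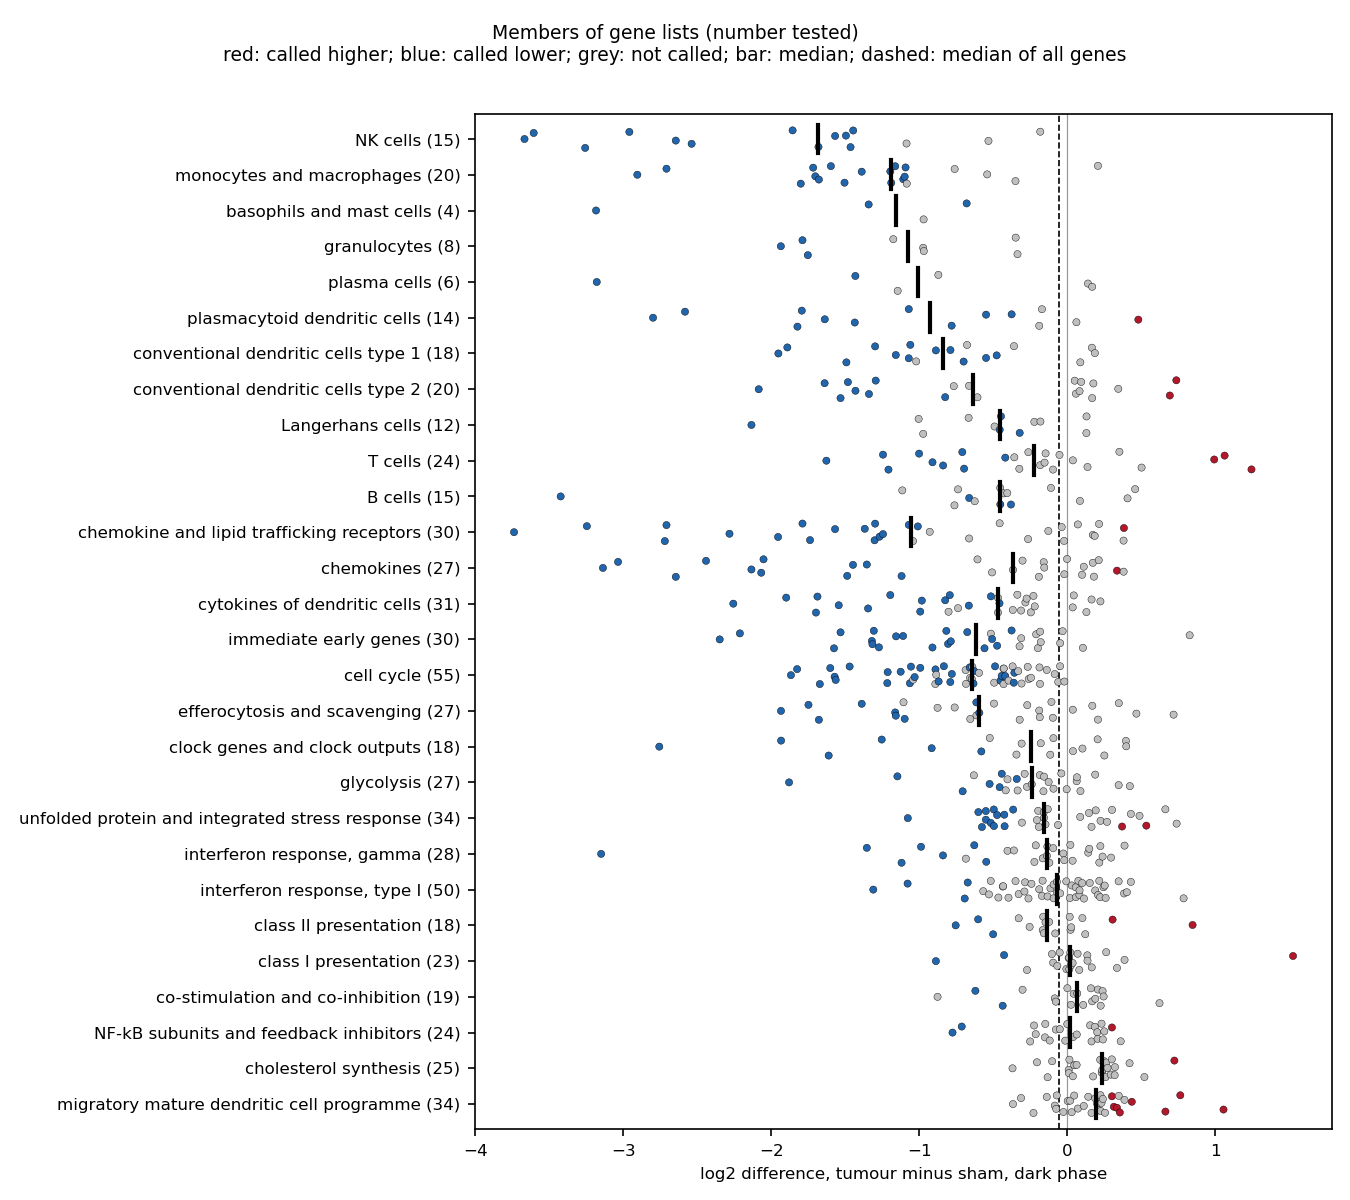
Log2 differences (tumour minus sham, dark phase) of the members of 28 gene lists, with 1 point per gene tested, red where called higher, blue where called lower and grey otherwise, a bar at the list's median and a dashed line at the median of all genes (-0.05). Lists of NK cells (-1.68), macrophages (-1.19) and plasmacytoid DCs (-0.93) have their medians far to the left, and the migratory DC programme (0.19) lies to the right.

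The migratory programme, the genes that DCs switch on as they mature and travel, differed in direction from the cell type lists above. Of its 34 genes 8 rose and none fell (median 0.19), where 5.5% of all genes rose. Median-of-ratios scaling gave 12 higher and none lower, beside 837 higher and 1131 lower of all 11963 genes. Marcks, an actin-binding substrate of protein kinase C, was 1721, 1836 and 1929 CPM in tumour and 460.0, 907 and 1418 CPM in sham libraries (log2 difference 1.05 ± 0.20 (SE), adjusted p = 0.00154). Its 10 tumour libraries lay close together and all above the highest sham library, with KO libraries at 949.6, 1541 and 2068 CPM. Adam23, a membrane protein of the disintegrin family, rose from 158, 247 and 344 to 344, 423 and 468 CPM (log2 0.76, adjusted p = 2.50e-04), and here the highest sham and the lowest tumour library differed by less than 1 CPM. Apol7c, an apolipoprotein that acts on endosomes in DCs, rose by 0.43, Nudt17 by 0.35 and Birc3, an inhibitor of apoptosis induced by NF-kB, by 0.30 on the log2 scale (adjusted p = 0.0148). Each of these 3 genes held a fraction of a read in all 16 libraries.

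**Figure D3:**
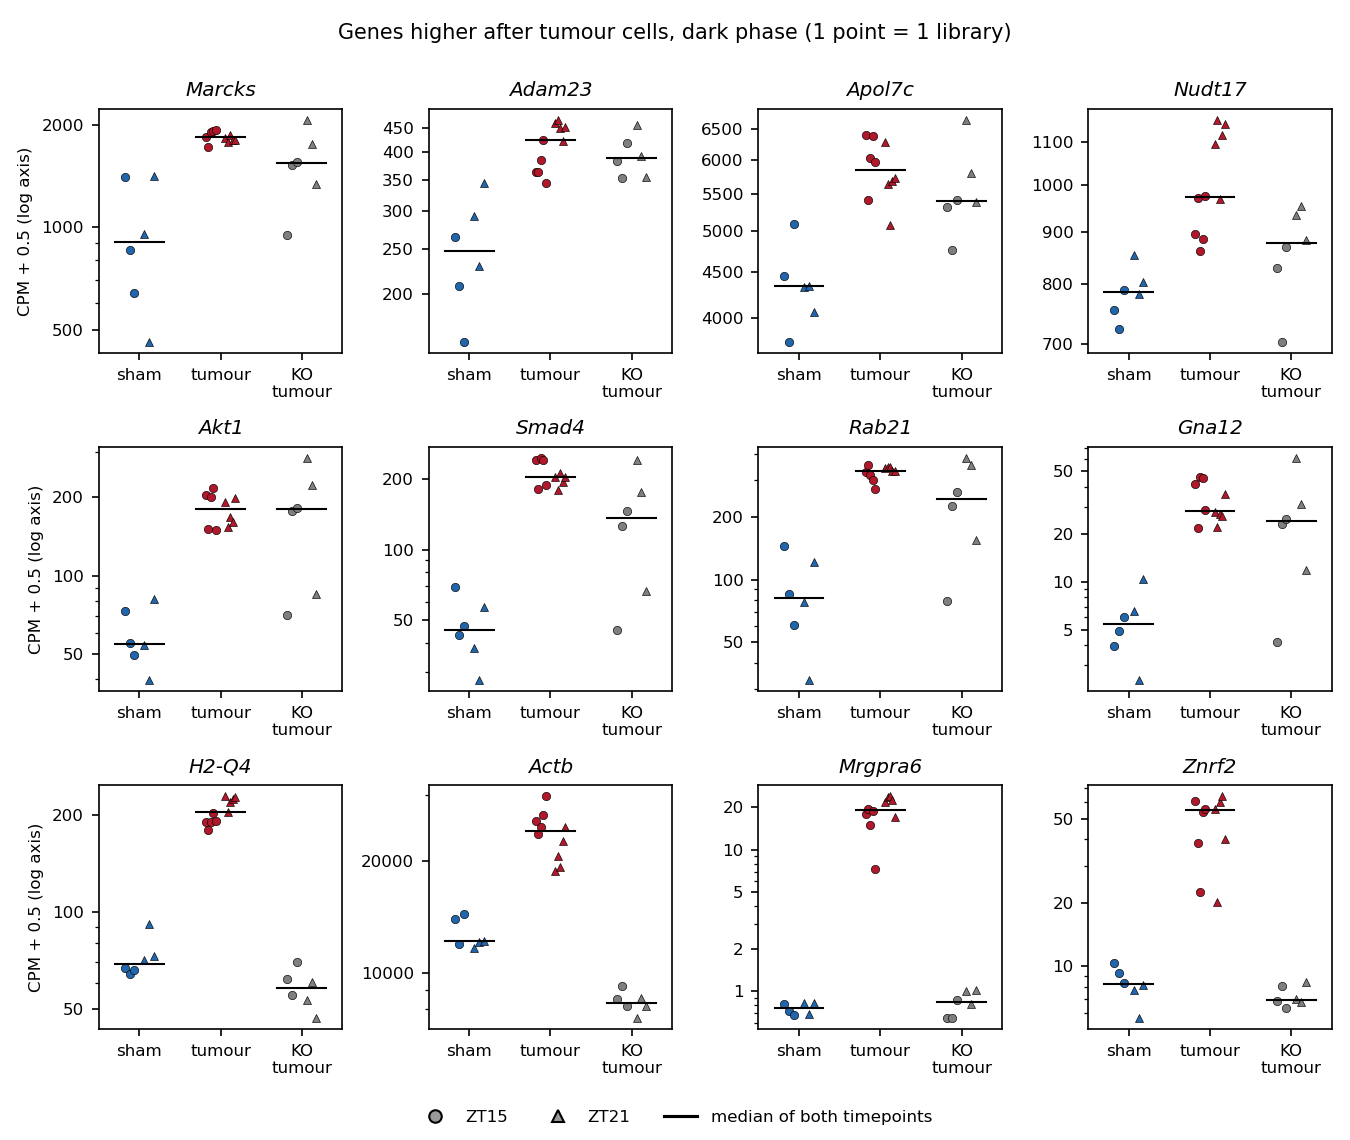
CPM + 0.5 on a log axis for 12 genes that rose, with 1 point per library (circles ZT15, triangles ZT21) in sham (6), tumour (10) and KO tumour (6) libraries and a bar at the median. For Akt1, Smad4, Rab21 and Gna12 the KO libraries spread from sham to tumour level, whereas for H2-Q4, Mrgpra6 and Znrf2 they stay near sham level (for Mrgpra6 at 0.144 to 0.530 CPM) and for Actb they lie below it.

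Of 19 co-stimulatory genes none rose and 2 fell (median 0.07), shares near those of all genes (5.5% and 11.6%). Cd80 was 7.39, 11.1 and 12.5 CPM in tumour and 6.57, 9.09 and 11.6 CPM in sham libraries (log2 0.24 ± 0.13, adjusted p = 0.225), and Cd86 111, 139 and 179 against 112, 127 and 147 CPM (log2 0.16 ± 0.11, adjusted p = 0.344). The genes that fell were Cd48, an adhesion ligand (log2 -0.44, adjusted p = 0.00517), and Lgals9, a galectin that binds T cell receptors such as TIM-3 (log2 -0.62, adjusted p = 0.00775). Antigen presentation genes were mostly not called. In class I, 1 of 23 rose and 2 fell, and in class II 2 of 18 rose and 3 fell. H2-Q4, a non-classical class I heavy chain on chromosome 17, was 179, 203 and 228 CPM in tumour, 63.6, 68.4 and 91.02 CPM in sham and 46.1, 57.3 and 69.2 CPM in KO libraries (log2 difference 1.52 ± 0.07 (SE), adjusted p = 2.54e-09), and its neighbour H2-Q2 6.92, 8.71 and 11.4, 0.434, 0.534 and 0.9298 and 0.345, 0.6797 and 1.17 CPM (log2 3.10). Both are near-identical copies of other class I genes and held a fraction of a read in every library, so that their levels are uncertain. H2-Eb2, a class II chain, rose by 0.85, also with fractions throughout. The peptide editors of class II, H2-DMa and H2-DMb1, fell by 0.60 and 0.75, and Pdia3, a chaperone of class I loading, fell by 0.43 on the log2 scale (adjusted p = 7.71e-04).

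Chemokine, cytokine and receptor genes stand beside 11.6% of all genes lower and 5.5% higher. Of 27 chemokine genes 11 fell and 1 rose, of 31 cytokine genes 14 fell and none rose, and of 30 receptors for chemokines and lipid attractants 16 fell and 1 rose (medians -0.37, -0.47 and -1.06). Ccl4 and Ccl3, chemokines that NK cells, macrophages and DCs make, fell from 36.4, 52.2 and 132 to 3.45, 6.06 and 23.5 CPM (log2 -3.03, adjusted p = 3.20e-06) and from 10.2, 12.7 and 31.8 to 1.14, 2.296 and 6.32 CPM (log2 -2.44, adjusted p = 1.63e-05). Neither overlapped between the groups. The monocyte attractants Ccl8 and Ccl12 fell by 2.07 and 1.45, and the interferon-induced Cxcl9 and Cxcl10 by 1.12 and 1.35 on the log2 scale. For Cxcl9 the KO libraries were also low, at 12.999, 14.1 and 17.8 CPM beside 9.697, 14.2 and 31.6 CPM in tumour and 26.04, 35.3 and 44.3 CPM in sham libraries.

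Ltb4r1, the receptor for the lipid attractant leukotriene B4, had the largest difference among the receptors. It was 0, 0.6597 and 3.66 CPM in tumour and 7.55, 15.2 and 55.96 CPM in sham libraries (log2 difference -3.74 ± 0.32 (SE), adjusted p = 1.49e-06). Ccr8, a receptor of skin-homing and regulatory T cells and of some DCs, fell from 15.98, 26.6 and 46.5 to 4.26, 6.56 and 9.69 CPM (log2 -1.95). F2r, a thrombin receptor outside these lists, fell from 29.98, 57.1 and 103 to 0, 4.09 and 14.3 CPM (log2 -3.89, adjusted p = 1.20e-05) and stood at 34.6, 49.7 and 71.5 CPM in KO libraries. Among the cytokines, Csf2 (GM-CSF), Il2 and Tnfsf11 (RANKL) were low in all groups and fell (log2 differences -2.26, -1.90 and -1.70), and Lta (lymphotoxin alpha) fell from 26.2, 32.6 and 52.1 to 11.9, 14.4 and 19.3 CPM (log2 -1.20).

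Of 50 genes of the type I interferon response 4 fell and none rose (median -0.07), and of 28 genes of the interferon gamma response 7 fell and none rose (median -0.14), beside 11.6% lower and 5.5% higher over all genes. The members that fell included Ms4a4c (9.18, 14.3 and 31.3 against 26.7, 40.3 and 50.8 CPM) and Ifi204 (3.21, 5.13 and 8.81 against 9.25, 10.7 and 19.4 CPM), both with near-identical relatives and fractions of reads in every library, and Socs1, a feedback inhibitor of cytokine signalling (log2 -0.55, adjusted p = 0.00436). Pattern recognition receptors gave 9 of 39 lower and none higher, with Clec4e and Clec7a, lectin receptors for microbial glycolipids and glucans, at -2.50 and -1.05. In the NF-kB list 1 of 24 rose and 2 fell, namely Nfkbid (log2 -0.71) and Nfkbiz (log2 -0.78), while the median was 0.02.

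Immediate early genes, which cells transcribe within minutes of a stimulus, were lower in 19 of 30 cases and higher in none (median -0.62), with 11.6% of all genes lower. Nr4a1, an orphan nuclear receptor, was 31.6, 64.4 and 133 CPM in tumour and 257, 277 and 602 CPM in sham libraries (log2 difference -2.21 ± 0.23 (SE), adjusted p = 8.62e-06). The highest tumour library held 133 CPM and the lowest sham library 257 CPM. Fos, a subunit of the transcription factor AP-1, was 371, 671 and 1016 CPM against 1160.0, 1597 and 1971 CPM (log2 -1.32, adjusted p = 1.60e-05), again without overlap. Egr2 and Ier2 fell by 2.35 and 1.27 on the log2 scale. Against sham, none of the 30 genes was called in the KO libraries (median 0.06), where 1.69% of all genes were higher and 0.41% lower with a median of 0.11. Nr4a1 stood there at 258, 287 and 390.3 CPM and Fos at 1219, 1675 and 2131 CPM. The summed level of the list was 11363 to 17978 CPM in tumour, 17399 to 20738 CPM in sham and 18371 to 22838 CPM in KO libraries, with an overlap of the tumour and sham ranges.

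**Figure D4:**
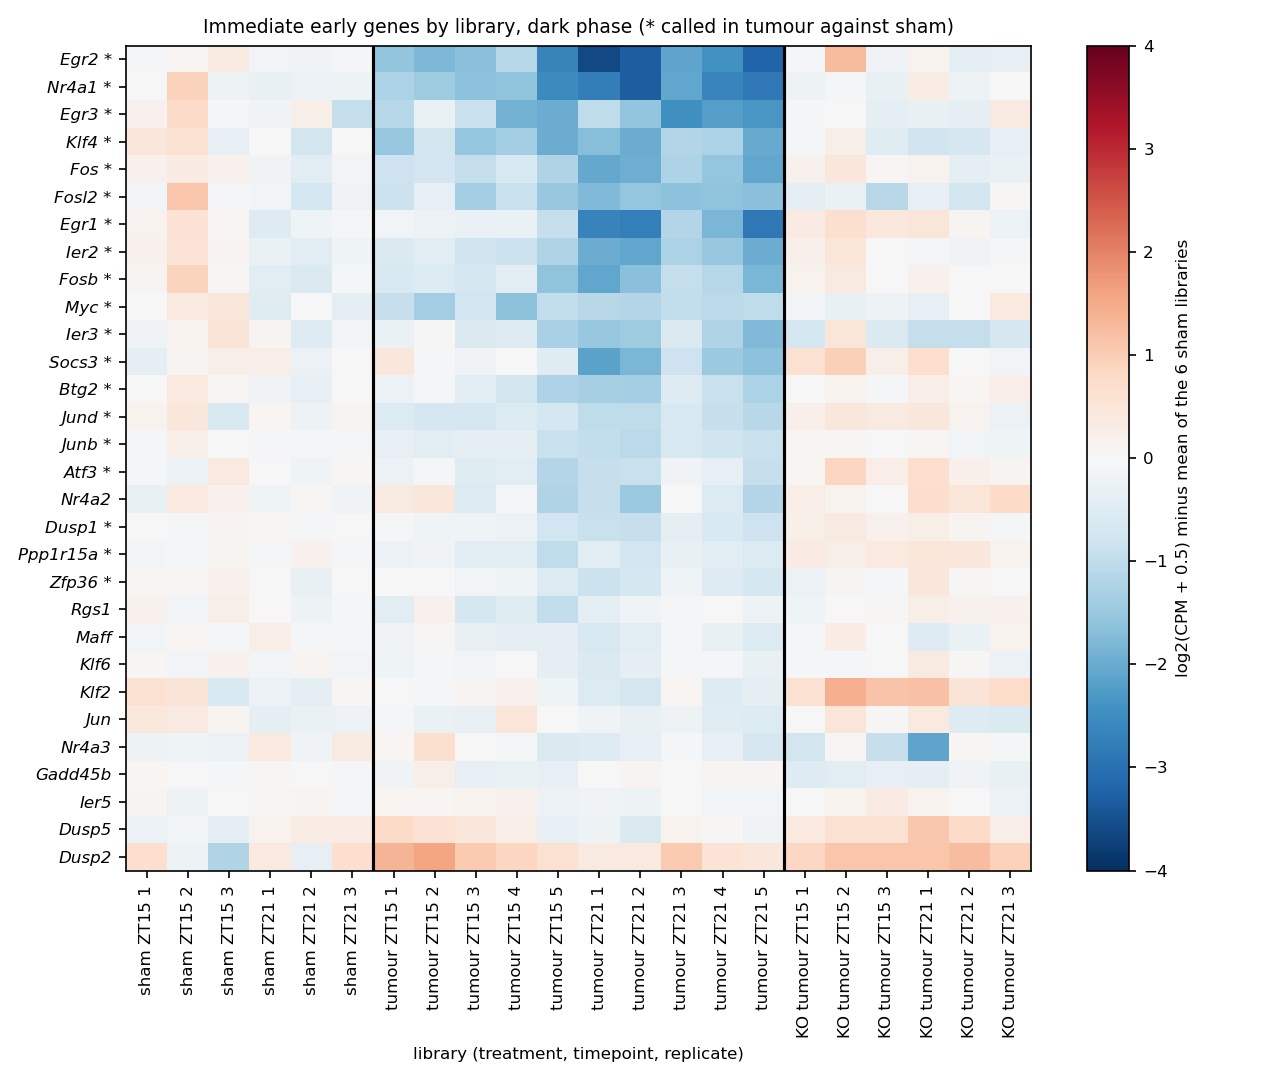
Immediate early genes (rows, ordered by their difference, those called marked with an asterisk) in each of 22 dark-phase libraries (columns), as log2(CPM + 0.5) minus the mean of the 6 sham libraries, blue for lower and red for higher. The tumour columns are blue in the upper rows, most of all at ZT21 and in tumour ZT15 replicate 5, and the KO columns are near sham level in most of these rows.

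Promoters are shown for a few members that fell, with the motifs found in them. The 250 bases before the start that the RefSeq promoter table (GRCm38.p6) gives were taken for 25 of the 30 genes. In 20 of these the start is the 5′ end of the annotated gene, and in 5, Nr4a1 (12944 bases) and Egr2 (1030 bases) among them, it lies inside the gene, so that the sequences of Nr4a1 and Egr2 precede an inner start. The windows were searched on both strands for the cAMP response element (CRE, TGACGTCA), the GC box (GGGCGG) and, by name, the CArG box of serum response factor. Nr4a1 and Egr2 had the largest differences, and Dusp1, Btg2 and Ppp1r15a were the 3 list members with a CRE. Btg2 and Ppp1r15a were chosen after their values were seen. Capitals mark the matches, GGGCGG or CCGCCC for a GC box and TGACGTCA for a CRE. A GC box directly follows the CRE of Dusp1, and 2 GC boxes of Btg2 overlap by 1 base.
Nr4a1 (chr15:101266596-101266845, plus strand): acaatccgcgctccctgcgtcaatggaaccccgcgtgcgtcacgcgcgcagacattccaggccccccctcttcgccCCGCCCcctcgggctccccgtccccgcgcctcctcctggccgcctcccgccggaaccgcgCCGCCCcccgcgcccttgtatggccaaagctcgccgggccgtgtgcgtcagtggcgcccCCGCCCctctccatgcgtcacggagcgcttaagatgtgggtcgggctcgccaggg
Egr2 (chr10:67535249-67535498, plus strand): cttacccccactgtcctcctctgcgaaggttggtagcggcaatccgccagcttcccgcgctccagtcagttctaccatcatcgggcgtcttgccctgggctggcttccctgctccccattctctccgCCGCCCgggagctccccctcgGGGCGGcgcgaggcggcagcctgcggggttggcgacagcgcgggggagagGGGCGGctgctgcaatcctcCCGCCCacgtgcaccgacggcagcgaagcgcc
Dusp1 (chr17:26508473-26508722, minus strand): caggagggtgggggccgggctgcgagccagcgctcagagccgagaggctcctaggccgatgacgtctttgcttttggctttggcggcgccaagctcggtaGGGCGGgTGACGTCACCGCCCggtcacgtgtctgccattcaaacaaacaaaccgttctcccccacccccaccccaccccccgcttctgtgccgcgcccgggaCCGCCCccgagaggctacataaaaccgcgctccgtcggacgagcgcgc
Btg2 (chr1:134079156-134079405, minus strand): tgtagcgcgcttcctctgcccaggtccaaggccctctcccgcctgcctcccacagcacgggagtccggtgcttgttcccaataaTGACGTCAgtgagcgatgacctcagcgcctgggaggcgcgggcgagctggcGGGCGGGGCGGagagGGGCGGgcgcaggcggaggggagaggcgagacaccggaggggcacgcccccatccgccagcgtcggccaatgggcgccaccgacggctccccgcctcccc
Ppp1r15a (chr7:45526269-45526518, minus strand): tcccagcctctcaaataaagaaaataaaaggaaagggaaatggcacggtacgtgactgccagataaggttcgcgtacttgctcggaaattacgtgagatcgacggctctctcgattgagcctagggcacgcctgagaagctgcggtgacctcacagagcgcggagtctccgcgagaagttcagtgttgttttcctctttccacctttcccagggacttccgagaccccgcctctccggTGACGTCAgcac
A CRE lay in 3 of the 25 promoters, 1.55% of all 32851 promoters and 2.73% of those of the genes tested. All 3 belonged to the 15 matched genes that fell, Dusp1, a phosphatase of MAP kinases (log2 -0.51, adjusted p = 0.0107), Btg2, an inhibitor of proliferation (log2 -0.81, adjusted p = 0.00458), and Ppp1r15a, a subunit of the phosphatase that ends the integrated stress response (log2 -0.47, adjusted p = 0.0131). A GC box lay in 21 of 25, beside 58.9% of the promoters of genes tested, and in 12 of the 15 that fell. A CArG box lay in 2 of 25 (1.11% of genes tested) and in 1 of the 15. A match describes the letters and is no binding site.

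Genes of the endoplasmic reticulum stress response fell in 12 of 34 cases and rose in 2 (median -0.16), where 11.6% of all genes fell and 5.5% rose. The chaperones Hspa5 (BiP), Pdia6 and Manf fell by small amounts with little spread. Hspa5 was 320.2, 354 and 404 CPM in tumour and 501, 546 and 609.9 CPM in sham libraries (log2 -0.60, adjusted p = 8.47e-05), while KO libraries held 579, 725 and 781 CPM. Psat1, an enzyme of serine synthesis under ATF4, fell from 13.97, 18.4 and 22.2 to 5.15, 9.08 and 12.5 CPM (log2 -1.08). Of 30 heat shock genes 2 rose and 2 fell, shares near or below those of all genes. Those that rose, Hspa1a and Hspa1b, encode the same inducible HSP70 protein and are near-identical, so that their reads cannot be assigned with certainty. They were 36.2, 69.5 and 134 against 15.4, 38.1 and 70.3 CPM (log2 1.06) and 31.3, 83.4 and 129 against 19.1, 28.01 and 66.9 CPM (log2 1.31), and here the KO libraries stood with the tumour libraries, at 29.3, 108 and 179 and 30.5, 87.6 and 175 CPM. Glucocorticoid receptor targets were lower in 4 of 21 cases and higher in none, beside the same shares of all genes.

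In the clock list 6 of 18 genes fell and none rose (11.6% and 5.5% of all genes). Rora, which activates Arntl transcription and also acts in innate lymphoid cells, was 6.66, 10.96 and 16.6 CPM in tumour and 22.05, 32.1 and 62.5 CPM in sham libraries (log2 -1.61), and Hlf, a transcription factor under clock control, fell as well (log2 -1.93). Cry1, a repressor of the clock, fell from 11.3, 14.7 and 26.7 to 5.31, 7.95 and 14.8 CPM (log2 -0.92, adjusted p = 0.00716). The difference of Arntl (-0.58, adjusted p = 0.0436) lost its call when any of 12 of the 16 libraries was left out and was -0.37 without sham ZT15 replicate 2 (adjusted p = 0.0827). Per1 (7.51, 12.5 and 17.3 against 9.67, 10.6 and 17.5 CPM, adjusted p = 0.738) and Dbp (26.7, 37.04 and 48.1 against 28.4, 38.1 and 59.5 CPM, adjusted p = 0.453) were not called.

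Cell cycle genes fell in 28 of 55 cases and none rose (median -0.64), where 11.6% of all genes were lower. With median-of-ratios scaling 21 fell, beside 1131 of all 11963 genes. Without the libraries farthest out 19 fell, beside 8.18% of all genes. Ccnb2, a mitotic cyclin, was 1.48, 2.77 and 6.03 CPM in tumour and 9.83, 12.4 and 13.8 CPM in sham libraries (log2 difference -1.87 ± 0.21 (SE), adjusted p = 1.80e-05), without overlap. Rrm2, which makes deoxynucleotides, Stmn1, which destabilizes microtubules, and Cdk1, the mitotic kinase, fell with it (log2 differences -1.83, -0.89 and -0.79). In the KO libraries the median of the list was 0.06.

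Among metabolic genes, glycolysis had 7 of 27 lower and none higher (11.6% and 5.5% of all genes). Gapdh was 155, 191 and 245 CPM in tumour, 628, 702 and 853 CPM in sham and 486, 598 and 995 CPM in KO libraries (log2 difference -1.88 ± 0.08 (SE), adjusted p = 1.07e-09). It has many processed copies in the genome and held a fraction of a read in every library, whereas the other enzymes that fell did so by less, such as Hk2 (log2 -1.15) and Ldha (log2 -0.44). Of 25 cholesterol synthesis genes 1 rose, below the 5.5% of all genes, namely Srebf2, the transcription factor of the pathway, from 145, 149 and 244 to 227, 277 and 346 CPM (log2 0.72, adjusted p = 0.00152), and none fell (median 0.23). At ZT15 5 genes of this list were higher (median 0.41) and at ZT21 none (median -0.04), beside 3.59% and 3.18% of all genes. The difference between timepoints was called in none of them. Its unadjusted limma p was under 0.05 in 7 of the 25, beside 14.2% of all genes. In the light phase 9 were higher and 1 lower, beside 7.3% and 16.3% of all genes. Genes of sterol efflux split. Abcg1, a cholesterol exporter, rose from 413, 431 and 493 to 574, 630.3 and 688 CPM (log2 0.48), while Nr1h3 (LXR alpha), the receptor that induces it, fell from 40.6, 50.3 and 81.3 to 15.6, 23.2 and 32.5 CPM (log2 -1.20). Genes for the mitochondrial ribosome (18 of 77 lower) and for oxidative phosphorylation (17 of 78 lower) included Mrpl42 (log2 -0.68) and Sdhb (log2 -0.44), with none higher, and these counts became 7 and 8 without the libraries farthest out, near the 8.18% of all genes that were lower there. Of the mitochondrial ribosome genes 23 were lower at ZT15 (median -0.35) and none at ZT21 (median -0.08), and of those for oxidative phosphorylation 13 and 4. Of all genes, 10.4% were lower at ZT15 (median -0.11) and 4.67% at ZT21 (median -0.01). For the difference between timepoints no gene was called. Unadjusted limma p-values under 0.05 for it were found in 10 of 77 and 1 of 78 genes, beside 14.2% of all genes. A difference between the timepoints is therefore not shown for these lists. Of 81 cytosolic ribosomal genes 7 rose, such as Rpsa (log2 0.59), and 4 fell, such as Rpl21 (log2 -1.36), a gene with many copies, beside 5.5% and 11.6% of all genes. The list's median difference from sham was 0.13 in the tumour and -0.64 in the KO libraries.

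In the cytoskeleton 2 of 31 genes rose and 3 fell, and this and the other counts of this paragraph stand beside 5.5% of all genes higher and 11.6% lower. Actb was 18756, 24137 and 29819.6 CPM in tumour, 11667, 12174 and 14409 CPM in sham and 7573, 8339.7 and 9273 CPM in KO libraries (log2 0.88, adjusted p = 5.64e-06), so that tumour and KO libraries lay on opposite sides of sham. Actg1 (log2 0.38, adjusted p = 0.0203) lost its call without sham ZT15 replicate 1 or 2 (adjusted p = 0.0519 and 0.0592). Its log2 difference was 0.67 at ZT15 and 0.08 at ZT21 (adjusted p = 0.731 with ZT21 fitted alone). Both actins share sequence and held fractions of reads throughout. Rac2, a GTPase of blood cells, fell from 259, 331 and 637 to 147, 196 and 212 CPM (log2 -0.94). Integrins and adhesion genes had 8 of 30 lower and 2 higher. Itgal and Itgb2, which pair as LFA-1, the integrin that binds leukocytes to each other, fell by 1.40 and 0.86 on the log2 scale (adjusted p = 2.07e-04 and 1.69e-04), and for both the KO libraries stood at sham level (44.8, 64.3 and 94.05 CPM for Itgal). Lysosomal genes gave 6 of 33 lower and 2 higher, with the cathepsins Ctsd and Ctsl at -0.83 and -1.28, and 9 of 27 genes for the uptake of dead cells and scavenging fell (median -0.59). In the apoptosis list 3 of 32 rose and 5 fell. Bcl2, which holds cells alive, fell from 18.03, 25.1 and 51.4 to 8.36, 12.3 and 15.1 CPM (log2 -1.18), and Casp6 fell by 0.73 on the log2 scale.

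Several of the genes named next were chosen for the size of their rise, without overlap of tumour and sham, and Akt1 as a member of its list. Akt1, a kinase downstream of PI3K (chr12:112653821-112674884), was 149, 179.6 and 216 CPM in tumour and 39.1, 54.1 and 80.6 CPM in sham libraries (log2 difference 1.64 ± 0.15 (SE), adjusted p = 3.01e-06). In the list of mTOR and AKT kinases 4 of 28 rose and 4 fell (median 0.04), beside 5.5% and 11.6% of all genes. Smad4, the common partner of TGF-beta signals, was 179.8, 203 and 245 CPM against 27.3, 45.002 and 68.9 CPM (log2 difference 2.19 ± 0.15 (SE), adjusted p = 1.18e-07). Rab21, a GTPase of integrin traffic, was 272, 331 and 354 CPM against 32.5, 81.1 and 144 CPM (log2 2.06, adjusted p = 2.06e-05). Gna12, a G protein subunit that acts on RhoA, rose from 1.905, 4.97 and 9.898 to 21.4, 27.7 and 45.5 CPM (log2 2.59), Nrg2, a ligand of ERBB receptors, from 0.0714, 0.3504 and 0.751 to 2.78, 6.77 and 9.65 CPM (log2 2.91), and Dll4, a Notch ligand, from 0.228, 1.07 and 1.82 to 3.09, 5.42 and 20.3 CPM (log2 2.07). The KO libraries were widely spread, and for Akt1 and Rab21 the highest of them was above all tumour libraries. They stood for Akt1 at 70.2, 179 and 283 CPM, for Smad4 at 45.1, 135 and 242 CPM and for Rab21 at 78.6, 243 and 381 CPM (adjusted p against sham = 0.05404, 0.0743 and 0.0797).

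For other genes that rose, such as Mrgpra6 and Znrf2, the KO libraries stood near sham level. Mrgpra6, a locus of the Mas-related receptor family that RefSeq lists as a transcribed pseudogene (chr7:47185717-47189416), was 6.76, 18.6 and 23.4 CPM in tumour, 0.181, 0.267 and 0.327 CPM in sham and 0.144, 0.345 and 0.5296 CPM in KO libraries (log2 difference 4.56 ± 0.19 (SE), adjusted p = 4.43e-10). Znrf2, a ubiquitin ligase, was 19.7, 54.1 and 63.2, 5.19, 7.77 and 9.83 and 5.85, 6.43 and 7.91 CPM in the same order (log2 2.43, adjusted p = 1.15e-05). Fam189a2, a membrane protein, rose from 4.17, 4.92 and 12.02 to 20.9, 26.6 and 41.7 CPM (log2 2.18), with KO libraries spread over 5.26, 10.8 and 51.7 CPM. Hmgb1, a chromatin protein with many processed copies, moved the other way, with 167, 205 and 236, 499.6, 547 and 658 and 458, 518 and 682 CPM in tumour, sham and KO libraries (log2 difference -1.45 ± 0.09 (SE), adjusted p = 2.98e-08) and fractional values in 87.5% of the 16. Over all genes, the comparison of KO tumour with sham called 202 genes higher (1.69%) and 49 lower (0.41%) with 6 libraries on each side, or 86 and 90 with median-of-ratios scaling, which moved the median of all genes in that comparison from 0.11 to -0.0042. It shares the sham libraries with the main comparison, so that no overlap of the calls is given.

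In the fit with 1 mean per group, 430 genes were higher (3.59%) and 1247 lower (10.4%) at ZT15. At ZT21 381 were higher (3.18%) and 559 lower (4.67%). With median-of-ratios scaling the counts at ZT15 were 641 and 788. Without sham ZT15 replicate 2 they were 150 and 391, and without sham ZT21 replicate 1 those at ZT21 were 231 and 342. A separate fit of each timepoint gave 230 genes higher and 686 lower at ZT15, and 326 and 488 at ZT21. The difference between the timepoints was itself tested, and no gene passed in limma (0%, smallest adjusted p = 0.0804), whereas 1694 genes (14.2%) were under an unadjusted p of 0.05. Leaving out tumour ZT15 replicate 2 gave 220 calls and 18 arose with an intensity trend, so that the absence of calls depends on the libraries and settings used. Genes with small p were Alox15, a lipoxygenase of macrophages (log2 -0.29 at ZT15 and -3.28 at ZT21, adjusted p of the difference = 0.0804), and Mapkapk2, a kinase downstream of p38 (0.78 and -0.34, adjusted p = 0.0804). Log2 differences at ZT15 and ZT21 were, for Ncr1 -3.29 and -4.04, for Siglech -2.44 and -2.73 and for Apoe -1.67 and -1.93. The median of the T cell list was -0.60 at ZT15 and 0.03 at ZT21.

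The light phase, with 10 tumour and 6 sham libraries at ZT3 and ZT9 that the dark phase does not share, gave 873 genes higher (7.3%) and 1944 lower (16.3%), or 1248 and 1656 with median-of-ratios scaling. There too the tumour libraries were the shallower ones, with 21126495 to 27557466 reads against 28003328 to 45243720 reads. Of the 2044 genes called in the dark phase, 1988 (97.3%) had the same sign in the light phase, beside 76.4% of all genes, and 1477 were called in the same direction there, which is 72.3% of the calls of the dark and 52.4% of those of the light phase. Pde5a, a phosphodiesterase of cyclic GMP named after its values were seen, was called in opposite directions (log2 0.71 and -0.56, adjusted p = 0.0209 and 0.0417). The difference between the phases was tested on 32 libraries, and no gene passed in limma (0%, smallest adjusted p = 0.223, 676 genes or 5.65% under an unadjusted p of 0.05). This count was 5 without sham ZT15 replicate 2.

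Nothing is therefore called particular to the dark phase, and the values stand side by side. For Siglech the log2 difference was -2.58 in the dark and -3.34 in the light phase, for Nr4a1 -2.21 and -2.67, for Mrgpra6 4.56 and 4.51 and for Rab21 2.06 and 1.95. Lef1 was called in the dark phase only (log2 1.06 and 0.27, adjusted p in the light phase = 0.111), with an adjusted p of the difference of 0.223. The smallest p of that test included Hyal3 (-0.45 and 1.36, adjusted p = 0.223), Baiap2l1 (-0.49 and 0.80, adjusted p = 0.223) and Ccr9 (-1.07 and -2.35, adjusted p = 0.223).

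**Figure D5:**
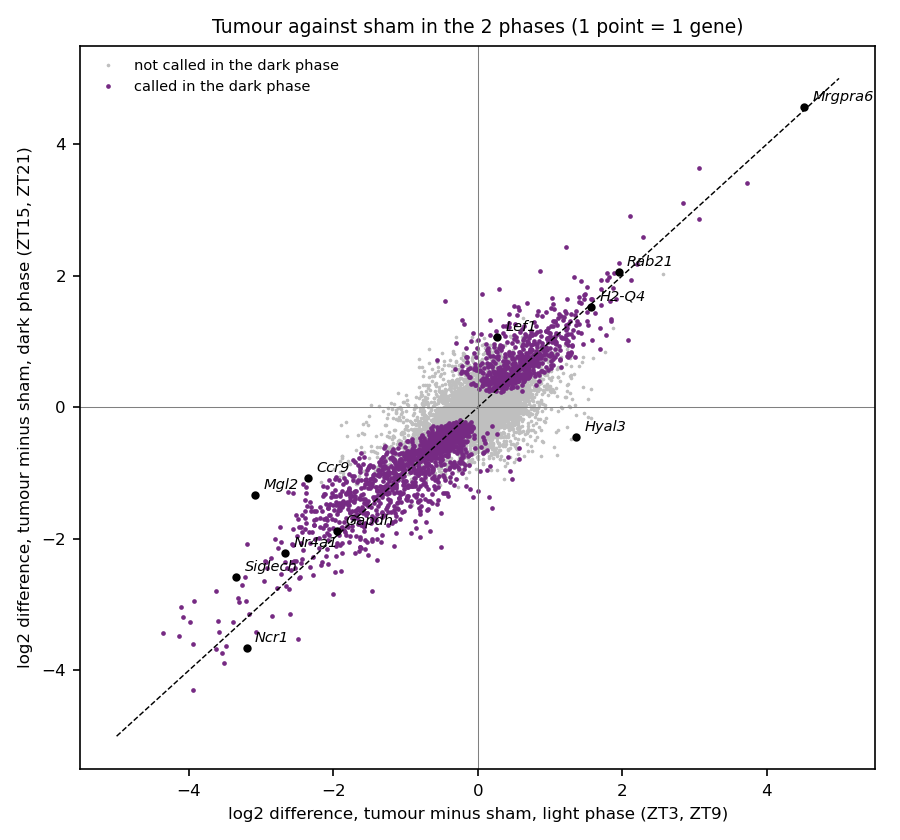
Log2 differences (tumour minus sham) of the 11963 genes tested in the light phase (x axis) and the dark phase (y axis), with the genes called in the dark phase in purple and a dashed line of equality. Genes called in the dark phase lie along the line, and 97.3% of them have the same sign in both phases.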

How the data were processed

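RNA was amplified with the SMART-Seq kit and libraries were made with Nextera XT. The authors mapped short single reads to mm10 (GRCm38) with STAR, assigned them to genes with HTSeq 0.9.1 (submitters' processing notes) and deposited 1 table of CPM for 14699 genes and 44 libraries, in which each column adds up to 1000000. Per library, 87.4% to 89.3% of values were whole multiples of 1 read (tolerance 0.01 read), which gave the reads on genes per library. The rest were fractions of a read, so no count test was run. One read was worth 0.0202 to 0.0498 CPM in the dark-phase libraries, and no counting interval is given.

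The 11963 genes that reached 1 CPM in 5 or more of the 44 columns were transformed to log2(CPM + 0.5), and treatment was fitted with timepoint as a covariate in limma 3.58.1 (R 4.3.3), two-sided, with variances moderated by empirical Bayes and p-values adjusted by the Benjamini-Hochberg method across the tested genes. Fold changes on this scale understate those of low genes. Values at ZT15 and ZT21, and interactions with timepoint and phase, came from fits with 1 mean per group. Each library is 1 mouse by the study's methods. The fits were tested on simulated data with independent normal noise and 200 changed genes, fewer than were called here. The main fit called 77% of log2 differences of 1 and 99% of those of 2. The interaction with timepoint called 25% and 75%, and that with phase 58% and 85%. The absence of calls in the interactions therefore does not show that differences are absent.

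The members and the 50 gene lists (48 with a tested gene) were chosen with earlier results of these data known. Lists are described by counts and medians, with no set test. Named genes were the 12 with the largest change in each direction (called, mean of at least 5 CPM in the higher of both groups, no overlap), the 5 with the smallest p in each direction, up to 4 per list and 3 per interaction with the smallest p, and the defining markers. Predicted genes were left out. Some genes that the rule names are not reported here. Of the genes with fractions in more than 50% of the 16 libraries (1423), 264 were called (18.6%), beside 16.9% of the others. RefSeq (GRCm38.p6) gave gene coordinates and promoters, and motifs and figures were made in Python 3.11.15. Alternatives were other pseudocounts, filters, scaling and limma settings, all 44 libraries, no timepoint term, each timepoint alone, the replicate number as a block and each library left out. Leaving out both libraries farthest out on the first component was added after the data were seen.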

Additional observations from a re-analysis of the deposited data

Results flagged for a closer look

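In groups of 5 tumour libraries, the highest or lowest library was set against the others by Dixon's ratio (critical value 0.71) for 138 named genes. Of 276 groups, 10 held a library that stood apart, where chance gives about 1 in 20 groups. Tumour ZT15 replicate 5 was the one in 4 of these, with Ccr7 at 4338 CPM (others 5599.9 to 6036 CPM), Dusp1 at 1135 CPM (others 1623 to 1821 CPM), Rrm2 at 13.7 CPM (others 6.32 to 7.86 CPM) and Mrgpra6 at 6.76 CPM (others 14.4 to 19.0 CPM). Tumour ZT15 replicate 2 stood apart with the highest Cxcl10 (39.4 CPM, others 16.1 to 19.5 CPM) and the lowest Hspa5 (320.2 CPM, others 391 to 404 CPM). At ZT21, replicate 5 had the lowest Epcam (35.0 CPM, others 44.8 to 48.8 CPM) and the lowest Mrgpra6 (16.5 CPM, others 21.2 to 23.4 CPM), replicate 1 was the library with F2r at 0 CPM (others 1.45 to 2.84 CPM), and replicate 2 had the lowest Cox6a2 (0.603 CPM, others 0.972 to 1.10 CPM). Groups of 3 sham libraries are too small for this comparison.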

How the results depend on the processing

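The count of genes called in the dark phase (2044) was 1161 with the replicate number as a block, 916 with ZT15 fitted alone and 814 with ZT21 fitted alone, and stayed within 1.5 times under the other alternatives; with both libraries farthest out left out it was 1408. At 2-fold, 692 genes became 241 with a mean of at least 10 CPM and 591 with both of those libraries left out. At ZT15 the replicate block gave 758 calls in place of 1677. Over 20 pairs of libraries with the same replicate number, the correlation of their deviations from the group means ran from -0.148 to 0.115. Of these, 2 pairs were over 0.1. In such small groups these correlations cannot exclude a pairing or a shared experiment by replicate number. For the interaction with timepoint, no call became 1 with all genes above 0, 7 with a mean of at least 10 CPM, 18 with an intensity trend, 1 with ordinary least squares, 2 with all 44 libraries and 2 with the replicate block, and for the interaction with phase 2 with all genes above 0. Leaving out 1 library at a time gave 1482 (without sham ZT15 replicate 2) to 2149 calls in the dark phase, 603 to 729 at 2-fold, 541 (without sham ZT15 replicate 2) to 2086 at ZT15, 573 (without sham ZT21 replicate 1) to 1022 at ZT21, 2363 to 3459 in the light phase, 0 to 220 (without tumour ZT15 replicate 2) for the interaction with timepoint and 0 to 5 (without sham ZT15 replicate 2) for that with phase. The causes were not tested. Of 138 named genes 124 were called, and 118 of these kept their call in every omission, all but Cd79a, Xcr1, Mgl2, Epcam, Arntl and Actg1. The block ended 15 of the 124 calls, median-of-ratios scaling 3, ZT15 fitted alone 40 and ZT21 fitted alone 28. No called gene changed sign in these settings. Among genes that were not called, Cd207 changed sign (-0.22 with ZT15 alone, and -0.027 without sham ZT21 replicate 1 to 0.23 when libraries were left out), as did Ccr7 (-0.12 with ZT21 alone, and -8.28e-05 without sham ZT15 replicate 2 to 0.14) and Mapkapk2 (-0.34 with ZT21 alone). The edgeR test on recovered reads was not run, since whole reads could not be recovered for all genes. Depth limits values near 1 read (0.0202 to 0.0498 CPM).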
